A study of Mus musculus with 6 samples.

Results

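The 3 zona pellucida genes Zp1, Zp2 and Zp3 and the 3 oocyte secreted protein genes Oosp1, Oosp2 and Oosp3 were followed through RNA sequencing of mature oocytes from aged mice. They were taken by symbol from a count table of 53465 Ensembl genes, which gives 6 member genes of 53465. The group was chosen because Zp2 varied strongly between pools of the same treatment in these counts, so that spread is described here without a test. All 6 genes were among the 11842 genes that passed the filter on low counts and were tested.

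The study asked whether quercetin, a plant flavonol with antioxidant activity, helps oocytes of aged females to mature in culture. Germinal vesicle oocytes of 9- to 10-month-old Kunming (KM) females, freed of cumulus cells, were cultured for 16 h either without quercetin (control) or with 10 μM quercetin, for which the methods give DMSO as the solvent. Each library was made from 15 oocytes at metaphase II (MII) from 3 mice, with 3 libraries per group, so the replicate is a pool and no value belongs to a single oocyte. The labels do not say whether the pools came from different mice, and p-values measure the spread between these pools only.

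The zona pellucida is the glycoprotein coat of the egg, which sperm bind and cross, and in the mouse it is built from ZP1, ZP2 and ZP3, secreted by the growing oocyte. ZP2 and ZP3 form the filaments and ZP1 links them, and after fertilization the egg protease ovastacin cleaves ZP2 so that further sperm no longer bind. The Oosp genes encode small secreted proteins made mainly by oocytes. Transcription has largely stopped in the fully grown oocyte, and the RNA of an MII egg is a store inherited from growth, part of which is degraded or changes its poly(A) tail during maturation. In cDNA primed at the poly(A) tail, fewer RNA molecules and shorter tails cannot be told apart, nor can fewer intact oocytes in a pool and less RNA per oocyte.

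The 6 genes lie at 4 places in the genome (GRCm38 with GENCODE release M21). Zp1 (ENSMUSG00000024734) lies on the minus strand of chromosome 19 at chr19:10914287-10920632, with 12 exons in its main transcript. Zp2 (ENSMUSG00000030911) lies on the minus strand at chr7:120126772-120145291, with 18 exons. Zp3 (ENSMUSG00000004948) lies on the plus strand at chr5:135980099-135988624, with 8 exons. The Oosp genes are neighbours on chromosome 19, in the order Oosp2 (ENSMUSG00000055895, minus strand, chr19:11647279-11660559, 4 exons), Oosp1 (ENSMUSG00000041857, minus strand, chr19:11667460-11691150, 5 exons) and Oosp3 (ENSMUSG00000055933, plus strand, chr19:11697055-11711874, 6 exons). Their coding sequences predict proteins of 623 (ZP1), 713 (ZP2), 424 (ZP3), 202 (OOSP1), 168 (OOSP2) and 195 (OOSP3) residues. The exons of Zp1, Zp2, Zp3, Oosp1 and Oosp2 overlap no other annotated gene. Oosp3 shares 6.93% of its exon length with Gm19224 on the opposite strand, and because the use of strand in the counting is not given in the sources used here, reads from that stretch cannot be told apart.

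The zona transcripts share an end structure that had no part in their choice, and their stop codon regions are shown for that reason. Capitals mark AATAAA, the signal for cleavage and polyadenylation, searched on the transcript strand together with ATTAAA in the last 40 bases of each main transcript. Only the match nearest the transcript end was kept and marked. Each window starts 8 bases before the stop codon and is given 5′ to 3′ from GRCm38.
Zp1, chr19:10914304-10914333, minus strand: tcagatattaaatggactcAATAAAccatt
Zp2, chr7:120132370-120132399, minus strand: tcaatcactgattggacttgcaAATAAAga
Zp3, chr5:135988601-135988624, plus strand: ttccgcAATAAAagaagaaactca
In Zp3 the signal overlaps the stop codon, and the annotated 3′ UTR is 13 bases long. In Zp1 the marked AATAAA starts 8 bases after the stop codon (3′ UTR of 34 bases), and in Zp2 it starts 11 bases after (49 bases). The Zp1 window also holds an unmarked ATTAAA, which overlaps its stop codon. In Oosp2 and Oosp3 the same signal starts 112 and 156 bases after the stop codon, in 3′ UTRs of 138 and 175 bases, and neither form was found in the last 40 bases of Oosp1, whose 3′ UTR has 230 bases. Among 9799 tested genes with an annotated 3′ UTR length, 160 (1.63%) had one above 0 and no longer than that of Zp2, against a median of 958 bases over all of them.

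Upstream sequence was looked at because the zona genes rise together in oocyte growth under FIGLA, a basic helix-loop-helix factor that binds E-boxes (CANNTG) near their starts. The 250 bases before the RefSeq start are given for Zp3, Oosp1 and Oosp2, from RefSeq on GRCm38.p6, with every CANNTG in capitals. The set of promoters used had no entry for Zp1, Zp2 and Oosp3, so the matches say nothing about those genes. The motif reads the same on both strands.
Zp3, chr5:135979855-135980104, plus strand: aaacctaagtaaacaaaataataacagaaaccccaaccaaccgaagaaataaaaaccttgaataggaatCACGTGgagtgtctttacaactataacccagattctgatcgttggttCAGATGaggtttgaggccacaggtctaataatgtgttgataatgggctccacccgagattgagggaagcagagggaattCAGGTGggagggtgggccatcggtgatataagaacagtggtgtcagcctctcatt
Oosp1, chr19:11691052-11691301, minus strand: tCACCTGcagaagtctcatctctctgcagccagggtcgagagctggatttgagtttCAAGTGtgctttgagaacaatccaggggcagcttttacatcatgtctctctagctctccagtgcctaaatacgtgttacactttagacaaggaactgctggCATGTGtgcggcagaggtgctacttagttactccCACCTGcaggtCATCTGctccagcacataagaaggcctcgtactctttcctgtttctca
Oosp2, chr19:11660560-11660809, minus strand: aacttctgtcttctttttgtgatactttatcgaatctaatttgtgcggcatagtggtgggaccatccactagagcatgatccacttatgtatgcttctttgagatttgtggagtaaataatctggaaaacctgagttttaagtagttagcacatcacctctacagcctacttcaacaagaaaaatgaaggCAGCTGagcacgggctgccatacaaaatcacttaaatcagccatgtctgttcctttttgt
Zp3 held 3 matches, the first bases of which lie at -181, -134 and -55 from the start, Oosp1 held 5 and Oosp2 held 1, at -60. CANNTG occurred in 66.2% of 32851 promoter windows of this length, so a match by itself is common. The match at -181 in Zp3 is CACGTG, which 6.02% of the windows held, and neither Oosp window held it. TATAA was found in Zp3 only among the 3 windows, at -160 and -29, and in 22.8% of all windows on either strand. The RefSeq and GENCODE starts differ for Oosp1 and Zp3: the last 99 bases of the Oosp1 window, with its matches at -93, -59 and -48, and the last 6 of the Zp3 window lie inside the gene as GENCODE release M21 places it. The sequences are those of the reference strain, not of Kunming mice.

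The pools had 7880467 to 9938743 counts, and 3 counts corresponded to 0.328 to 0.375 CPM (counts per 1000000 counts of the pool, after TMM scaling), so no member was near the limit of detection. All 8 oocyte markers examined were tested, with a summed level, most of it Dppa3 and Gdf9, of 18130 to 19904 CPM in control and 18998 to 21570 CPM in quercetin pools. With quercetin 5 were higher and 3 lower. Ooep, named after its values were seen, was the 1 with an unadjusted p under 0.05 (0.0412, edgeR), against 4.03% of all tested genes. It had 716 ± 241 CPM in control and 379 ± 222 CPM in quercetin pools, which overlapped, with an adjusted p of 0.988 (edgeR). Of 11 cumulus and granulosa markers, Amh, Foxl2, Ptx3 and Amhr2 were at 0 in every pool. Their sum, most of it Cyp19a1, was 68.9 to 84.6 CPM in control and 89.3 to 95.8 CPM in quercetin pools, which did not overlap, as was the case for 10.6% of all tested genes. Of the 3 that were tested, Kitl, named after its values were seen, had the largest difference, with 8.08 ± 0.50 CPM in control and 12.2 ± 0.29 CPM in quercetin pools (SD, n = 3), with an unadjusted p of 0.0209 and an adjusted p of 0.988 (edgeR). All 3 were higher with quercetin, but Has2 only slightly, at 4.18 CPM in control and 4.33 CPM in quercetin pools, with overlapping groups. Among the markers too low to test, Fshr had a lower mean with quercetin, and Inha, Inhba and Tnfaip6 had higher means. The sum therefore mainly reflects Cyp19a1 and Kitl. The 5 theca and stroma markers summed to 1.31 to 3.81 CPM and the 3 blood markers to at most 0.587 CPM. The part of other cells in the results below was not tested.

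Zp2 had the highest count among the zona genes in 4 of 6 pools and the widest range of the 6 member genes. In control pools it stood at 223, 1556 and 628 CPM for replicates 1, 2 and 3. In quercetin pools it stood at 130, 846 and 1321 CPM. Replicate 1 was lowest in both groups, control replicate 2 and quercetin replicate 3 were highest, and the groups overlapped over most of their range. The highest pool was 11.9-fold above the lowest, with a range of 6.99-fold among the controls and 10.1-fold among the quercetin pools. The counts behind the extremes were 12980 and 1045.

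Zp1, the linker of the filaments, stood at 172, 455 and 359 CPM in the control pools. With quercetin it stood at 165, 375 and 536 CPM. As for Zp2, both replicate 1 pools lay under all others, and the range over the 6 pools was 3.26-fold. Zp3, the partner of ZP2 in the filament, stood at 227, 740 and 323 CPM in the control pools. With quercetin it stood at 209, 462 and 541 CPM. Its pools took exactly the order of Zp2, from quercetin replicate 1 up to control replicate 2, over a 3.55-fold range.

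Oosp1 was the most abundant of the 6 genes, and its pools lay close together. Control pools held 6021, 6853 and 5439 CPM, and quercetin pools held 5707, 7131 and 4679 CPM. Both the highest and the lowest pool were quercetin pools, 1.52-fold apart, and the quercetin pool lowest in Oosp1, replicate 3, was the highest quercetin pool for each zona gene. Oosp3 stood at 3709, 5563 and 4490 CPM in control and at 4145, 4016 and 3416 CPM in quercetin pools. The 3 quercetin pools of Oosp3 lay within 1.21-fold, and all of them were under 2 of the 3 control pools but the groups overlapped through control replicate 1. Oosp2 stood at 190, 321 and 293 CPM in control and at 222, 307 and 238 CPM in quercetin pools, a 1.69-fold range in which the groups overlapped.

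**Figure D1:**
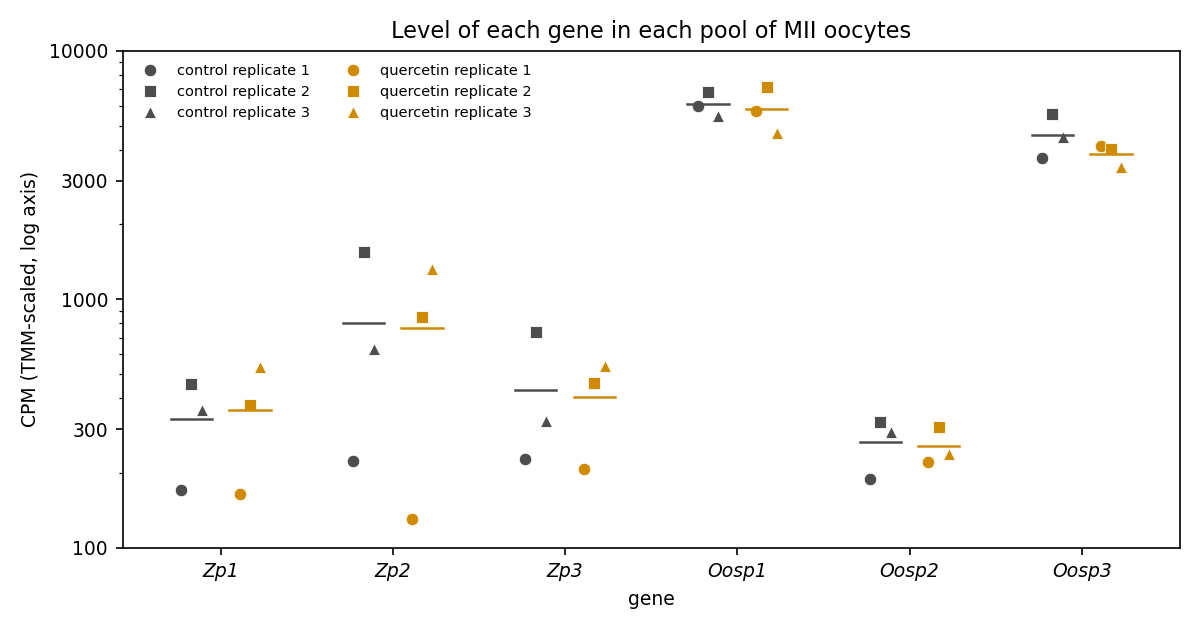
TMM-scaled CPM (log axis) of the 6 genes in each of the 6 pools, with control pools in grey, quercetin pools in orange, the replicate number as the marker shape and the group mean as a bar. Zp2 runs from 130 to 1556 CPM, Zp1 and Zp3 vary less with the replicate 1 pools lowest, and the Oosp genes stay within 1.69-fold.

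To set the genes against each other, CPM was divided by the length of the main transcript in kilobases, and levels are means ± SD over all 6 pools. Oosp1 was highest at 6144 ± 937 CPM per kb and Oosp3 next at 5233 ± 933. Their ranges overlapped, but Oosp1 was above Oosp3 in 6 of 6 pools. Oosp2 followed at 387 ± 77.8 CPM per kb, 13.5-fold under Oosp3 and with no overlap. Zp2 (353 ± 259 CPM per kb) and Zp3 (315 ± 155) did not differ from their neighbours beyond the spread, since Oosp2 was above Zp2 in 4 of 6 pools and Zp2 above Zp3 in 4 of 6. Zp1 was lowest at 175 ± 76.4 CPM per kb, and although its range overlapped that of Zp3, it was under Zp3 in 6 of 6 pools. Together the 3 Oosp genes took 0.876 to 1.35% of all counts in a pool and the 3 zona genes 0.0476 to 0.291%.

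With quercetin, none of the 6 genes was called as changed. Group means of the zona genes were 802 ± 683 CPM in control and 766 ± 599 CPM in quercetin pools for Zp2, 329 ± 144 and 359 ± 186 CPM for Zp1, and 430 ± 273 and 404 ± 174 CPM for Zp3 (SD, n = 3 pools per group). Those of the Oosp genes were 6104 ± 711 and 5839 ± 1231 CPM for Oosp1, 268 ± 69.2 and 256 ± 45.2 CPM for Oosp2, and 4587 ± 931 and 3859 ± 389 CPM for Oosp3. In every gene the difference of the means was smaller than the SD of the control pools. For Oosp3 alone it was larger than the SD of the quercetin pools.

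The test was edgeR's quasi-likelihood test over all 11842 tested genes with Benjamini-Hochberg adjustment, and a gene was called where its adjusted p was below 0.05 and it differed by more than 2-fold. It called 0 of 6 members and 0% of the tested genes, and at an unadjusted p under 0.05 it passed 0 of 6 members against 4.03% of all tested genes (477). DESeq2 called 11 genes, none of them a member. The paper reported changed genes in both directions at the same thresholds, with a test that it does not name. No member had groups that did not overlap, against 10.6% of tested genes. The log2 fold change, quercetin over control, was -0.25 (SE 0.18) for Oosp3, the member with the smallest adjusted p (0.988, edgeR). For Zp2 it was -0.07 (SE 0.79) with an adjusted p of 0.999 (edgeR). Zp1 had 0.13 (SE 0.43), Zp3 -0.09 (SE 0.45), Oosp1 -0.06 (SE 0.18) and Oosp2 -0.07 (SE 0.22). The median over the 6 genes was -0.07, beside -0.03 over all tested genes. Two-sided exact permutation tests of the mean log2 CPM gave p from 0.3 for Oosp3 to 1 for Zp3, where 3 pools against 3 cannot go under 0.1.

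How much these data leave possible differs between the families. The 95% interval of the fold change from edgeR ran from 0.276 to 3.30 for Zp2, from 0.552 to 2.16 for Zp1 and from 0.463 to 1.91 for Zp3. It ran from 0.717 to 1.28 for Oosp1, from 0.680 to 1.34 for Oosp2 and from 0.637 to 1.11 for Oosp3. A change of 2-fold in either direction lies outside the interval for each Oosp gene and inside it, in at least 1 direction, for each zona gene. The SE from DESeq2 was larger for every member, at 1.07 for Zp2, 0.60 for Zp1 and 0.63 for Zp3, so the width depends on the method. For Zp2 the direction rested on single pools, with a log2 fold change of 0.85 without control replicate 2, 0.44 without quercetin replicate 1 and -0.71 without quercetin replicate 3.

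**Figure D2:**
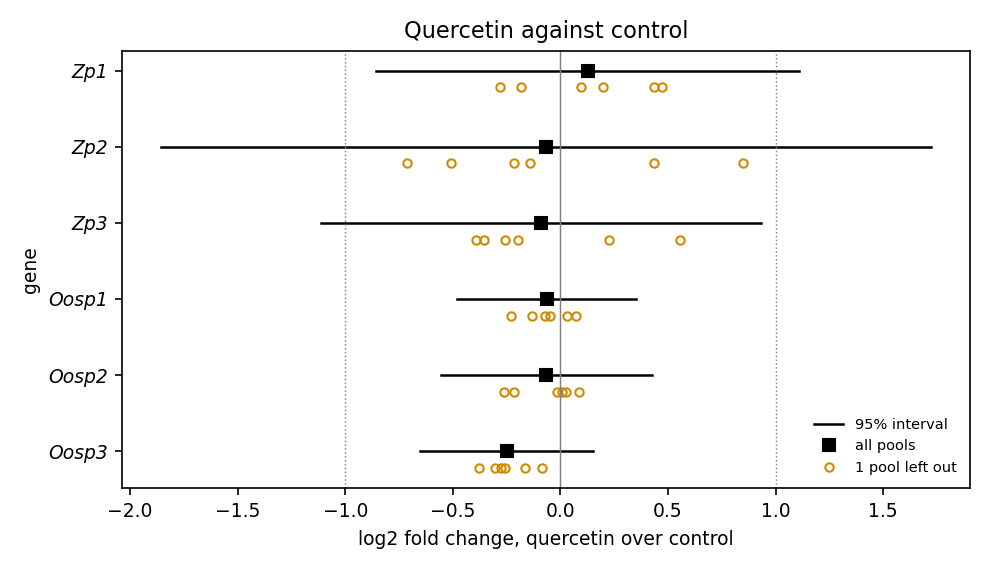
Log2 fold change of quercetin over control for the 6 genes from edgeR, with squares for the fit on all pools, bars for its 95% interval, open circles for fits with 1 pool left out and dotted lines at a 2-fold change. The Zp2 interval reaches past 2-fold on both sides, while those of the Oosp genes stay inside it.

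Pools of the same treatment differed more in the zona genes than in the Oosp genes. The SD of log2 CPM around the group means (4 degrees of freedom) was 1.60 for Zp2, larger than for 99.2% of the tested genes. Among 1695 genes with a mean of at least 100 CPM, only 6 varied more than Zp2. Zp1 (0.81) and Zp3 (0.81) were each above 93.4% of the tested genes or more, and above 98.2% of the abundant ones. Oosp1 (0.25) and Oosp3 (0.23) lay under the median of all tested genes, 0.32, and Oosp2 (0.34) above it, and all 3 lay above the median of the abundant genes, 0.20. Counting error alone would give 0.03 for Zp2. No test is given, because the spread of Zp2 is what the genes were chosen by.

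**Figure D3:**
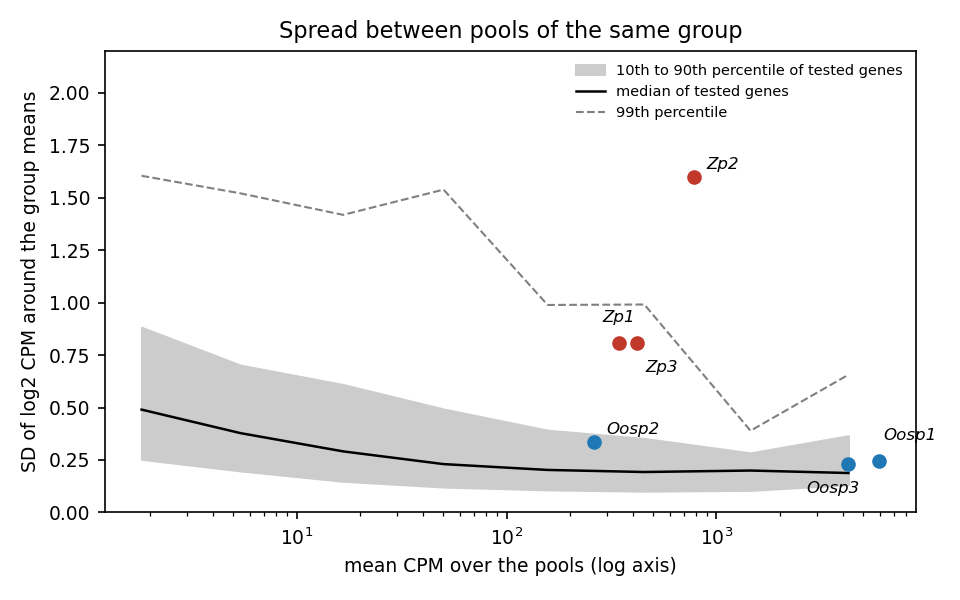
SD of log2 CPM around the group means against the mean CPM (log axis), with the median (line), the 10th to 90th percentile (band) and the 99th percentile (dashed) of tested genes in bins of mean CPM. Zp2 (1.60) lies above the 99th percentile line, Zp1 and Zp3 (0.81 each) lie between the band and that line, and the 3 Oosp genes lie within or next to the band.

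Zp1, Zp2 and Zp3 deviated in the same pools. In log2 CPM relative to its group mean, Zp2 was at -1.43, 1.37 and 0.06 in control replicates 1, 2 and 3, and at -2.01, 0.68 and 1.33 in the quercetin replicates. Zp1 was at -0.82, 0.58 and 0.24 and at -0.96, 0.22 and 0.74 in the same pools. Zp3 was at -0.74, 0.97 and -0.23 and at -0.84, 0.31 and 0.53. The 3 genes had the same sign in 5 of 6 pools, and in control replicate 3, where Zp3 lay under its mean, Zp2 lay almost on it. Over the 6 pools, log2 CPM of Zp2 correlated with that of Zp3 at r = 0.96 (Spearman rho 1) and with that of Zp1 at r = 0.97 (rho 0.94), and Zp1 with Zp3 at r = 0.91 (rho 0.94). Without the 2 pools farthest from the median of the first gene of each pair, r was 0.96 for Zp2 with Zp3, 0.84 for Zp1 with Zp2 and 0.67 for Zp1 with Zp3. These describe 6 points that share library, depth and scaling.

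The zona genes did not move by the same amount. The fitted slope was 1.93 log2 units of Zp2 per log2 unit of Zp1, and 0.49 log2 units of Zp3 per log2 unit of Zp2. A ratio of counts within a pool does not depend on scaling between pools, but it uses the same Zp2 counts. The genes were chosen for the spread of Zp2, so its steeper slope and wider ratios are description only. Zp2 over Zp3 was 0.980, 2.10 and 1.95 in control replicates 1, 2 and 3 and 0.626, 1.83 and 2.44 in the quercetin replicates. Both replicate 1 pools had fewer Zp2 than Zp3 counts, and the other 4 pools had more. Zp2 over Zp1 was 1.30, 3.42 and 1.75 in control and 0.793, 2.26 and 2.46 in quercetin pools, again lowest in the replicate 1 pools. Zp1 over Zp3 was steadier, at 0.756, 0.616 and 1.11 in control and 0.789, 0.811 and 0.991 in quercetin pools. The highest ratio was 3.90 times the lowest for Zp2 over Zp3, 4.31 times for Zp2 over Zp1 and 1.81 times for Zp1 over Zp3.

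Ratios between Oosp genes ranged less than those with Zp2, but not all ranged clearly less than Zp1 over Zp3. Oosp1 over Oosp3 ran from 1.21 to 1.78, Oosp1 over Oosp2 from 18.6 to 31.8, and Oosp2 over Oosp3 from 0.0511 to 0.0765. The highest Oosp1 over Oosp2 was 1.71 times the lowest, against 1.81 times for Zp1 over Zp3. Log2 CPM of Oosp1 correlated with that of Oosp2 at r = 0.451 and of Oosp3 at r = 0.564, and Oosp2 with Oosp3 at r = 0.672. Each r was lower than for any zona pair, so the narrow ratios do not show that the Oosp genes moved together. Over the pools Oosp1 did not follow Zp2 (r = 0.07, rho 0.14), and Oosp3 had r = 0.28 (rho 0.14). Oosp2 had r = 0.72 with Zp2 (rho 0.77), which rested on the 2 farthest pools, since r was -0.14 without them. None of the 6 ratios differed between quercetin and control in a two-sided exact permutation test (p from 0.4 to 1, 0.96 to 1 after Benjamini-Hochberg adjustment over 6 ratios), and every ratio overlapped between the groups. The mean log2 ratio of Zp2 over Zp3 was 0.67 ± 0.61 in control and 0.49 ± 1.03 in quercetin pools (SD, n = 3 each).

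**Figure D4:**
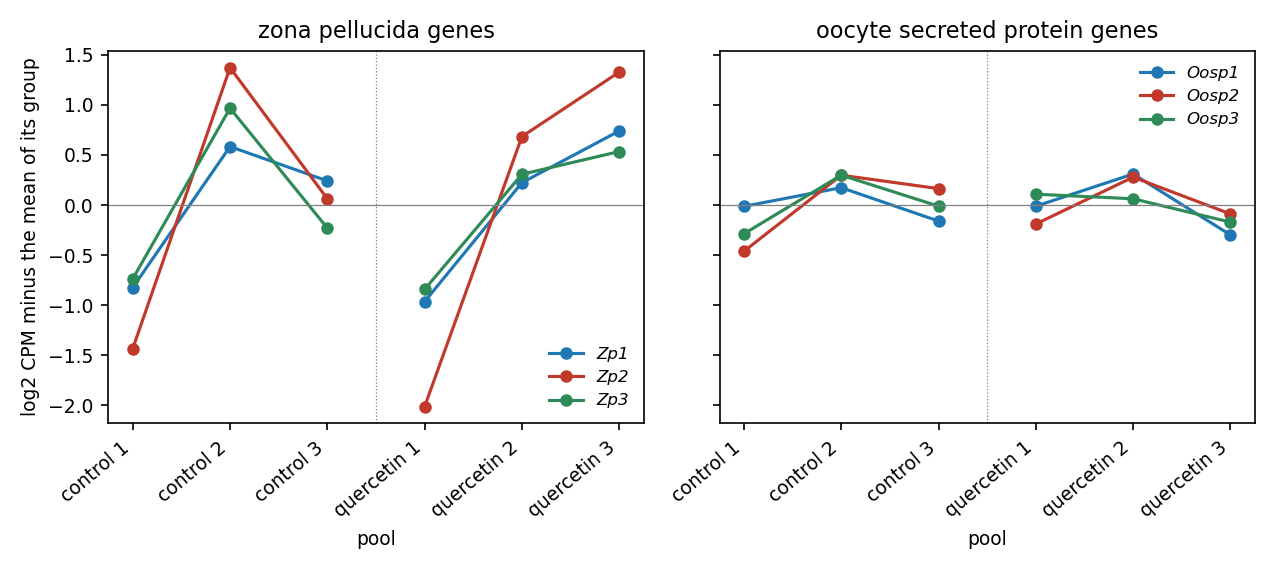
Log2 CPM of each gene minus the mean of its group, by pool, for the zona genes (left) and the oocyte secreted protein genes (right) on the same axis. The zona lines fall and rise together, with Zp2 reaching -2.01 and 1.37, while every Oosp value lies between -0.46 and 0.31.

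Values of the whole library moved with Zp2 to differing degrees. Zp2 had r = 0.71 (rho 0.83) with the first principal component of log2 CPM, which held 32.4% of the variance, and r = 0.79 (rho 0.71) with the number of genes that had a count, 18204 to 19374 per pool. With total counts it had r = -0.12 (rho -0.43) and with the mitochondrial share of counts r = -0.12 (rho -0.20), over the same 6 pools. Their part in the zona pattern was not tested.

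Other transcripts with the pattern of Zp2 were found by the root mean square difference of log2 CPM, each centred on its mean over the 6 pools, among 6214 genes with a mean of at least 10 CPM. The 8 nearest, at 0.26 to 0.49 log2 units, were Pinlyp, Gm7331, Uqcr11, Cst3, Ergic3, Dppa5a, Usp45 and Tnfsf11. Pinlyp, a member of the LY6/PLAUR domain family, had 12.6, 99.5 and 30.8 CPM in control and 8.74, 41.7 and 53.2 CPM in quercetin pools, in the same order as Zp2. Cst3, the secreted protease inhibitor cystatin C, had 19.5, 74.1 and 41.4 CPM in control and 11.4, 47.0 and 59.4 CPM in quercetin pools. Uqcr11, a small subunit of respiratory complex III, had 6.82, 53.1 and 19.5 CPM and 3.37, 25.6 and 20.7 CPM in the same pools. All 8 were lowest in the replicate 1 pools, which follows largely from their choice by likeness to Zp2. Each had a mean under 50 CPM, far less abundant than Zp2 at 784 CPM. Of the 6214 genes, 106 (1.71%) had r over 0.9 with Zp2 and 120 (1.93%) had r under -0.9.

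The nearest gene to Zp3 was Izumo1r, which encodes JUNO, the egg receptor for the sperm protein IZUMO1. Izumo1r had 47.9, 146 and 69.3 CPM in control and 45.5, 84.0 and 105 CPM in quercetin pools, a root mean square difference of 0.09 log2 units from Zp3 (r = 0.99). The next was Pebp1 (0.11). Zp1 was nearest to Sdf4 and Paics (0.17 each), Oosp1 to Epb41l4b and Trim32 (0.05 each), Oosp2 to Eif1b (0.05) and Tspan3 (0.06), and Oosp3 to Tfap2b (0.06) and Phf7 (0.07). Small differences are easier to reach for the Oosp genes, whose own values vary less between pools.

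**Figure D5:**
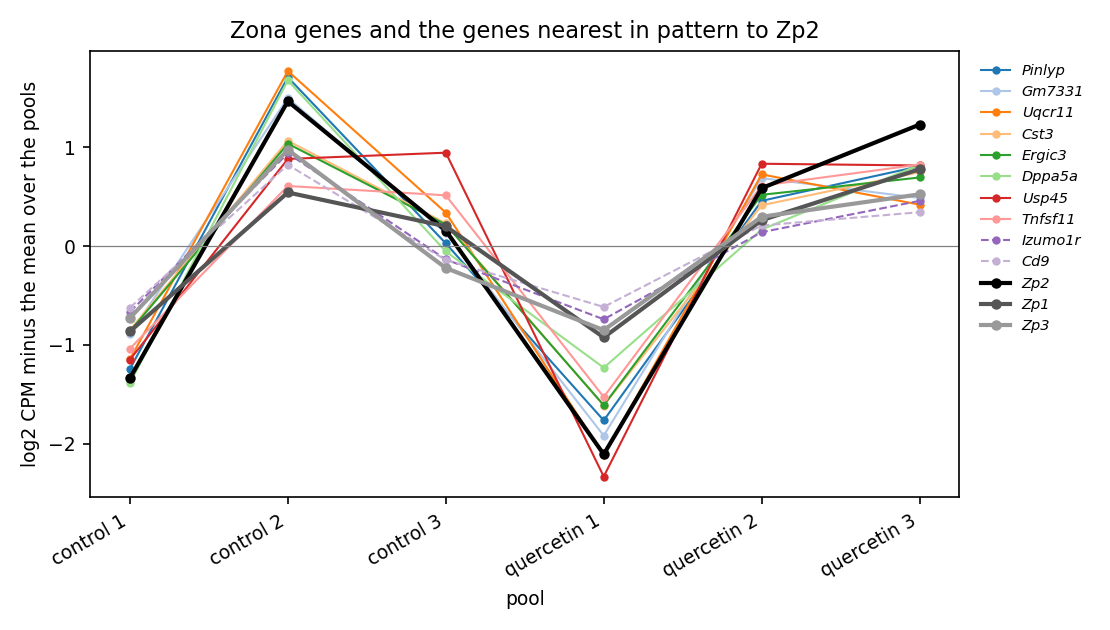
Log2 CPM minus the mean over the 6 pools, by pool, for the zona genes (thick lines), the 8 genes nearest in pattern to Zp2 (thin lines) and the egg surface genes Izumo1r and Cd9 (dashed). All genes drawn lie under their mean in both replicate 1 pools and above it in control replicate 2 and in quercetin replicates 2 and 3. The 8 genes were chosen for this likeness. Izumo1r, which is also the gene nearest to Zp3, and Cd9 were added by name, and Cd81 of the same list (r = 0.09 with Zp2) is not drawn.

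Genes around the zona were described from fixed lists, and none of their members was called in either direction by edgeR. Of 9 transcription factors and cofactors of oocyte and zona genes, 7 were tested, 0 were called and 0 passed an unadjusted p under 0.05. Figla itself had 2 to 12 counts per pool, too few to test, and Sohlh1 had none, both named here after their values were seen. Nobox, an oocyte homeobox factor, had 32.4 ± 2.91 CPM in control and 32.8 ± 18.8 CPM in quercetin pools (SD, n = 3). Sohlh2, a basic helix-loop-helix factor of early oocytes, had 21.7 ± 3.03 and 30.9 ± 6.38 CPM, with a log2 fold change of 0.51 (SE 0.23) and an adjusted p of 0.988 (edgeR). Taf4b and Lhx8 had log2 fold changes of -0.07 and 0.01. Within the groups the median SD of this list was 0.27 log2 units, under that of each zona gene.

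Of 10 genes that process or glycosylate zona proteins, 9 were tested and 0 called. Astl, which encodes ovastacin, was the most abundant at 193 ± 42.1 CPM in control and 251 ± 66.8 CPM in quercetin pools, with a log2 fold change of 0.38 (SE 0.22, adjusted p = 0.988, edgeR). C1galt1c1, the chaperone of the core O-glycan enzyme, had 73.6 ± 6.65 and 86.8 ± 15.2 CPM. Furin, a proprotein convertase of the kind that releases zona proteins from their membrane anchor, had 21.99 ± 4.45 and 17.1 ± 6.07 CPM. Fetub, which encodes a protein known to inhibit ovastacin, had 10.3 ± 2.10 and 11.2 ± 1.27 CPM.

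Of 12 other genes with a ZP domain, 6 were tested and 0 called. Tgfbr3, a TGF-beta coreceptor, and Umodl1 were the most abundant, at 75.4 ± 10.5 and 77.02 ± 29.97 CPM in control and 84.0 ± 8.10 and 75.9 ± 8.42 CPM in quercetin pools. Zpld1 had 4.18 ± 1.40 and 5.17 ± 2.33 CPM. Zp4-ps, the mouse remnant of a zona gene that is intact in other mammals, had 8 to 28 counts per pool and followed Zp2 at r = 0.93, with few counts behind each of the 6 points.

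The ligands that the oocyte secretes to its follicle did not share the zona pattern in one direction. All 4 were tested and 0 called. Gdf9 had 5742 ± 153 CPM in control and 6704 ± 748 CPM in quercetin pools and r = -0.53 with Zp2, and Bmp15 had 2053 ± 283 and 2336 ± 342 CPM and r = 0.74. The Gdf9 groups did not overlap, as was the case for 10.6% of all tested genes, and its adjusted p was 0.988 (edgeR). Those of Bmp15 overlapped. The paper names both among its up-regulated genes, and its qPCR, not analysed here, had primers for both. Bmp6 had 33.2 ± 5.51 and 32.3 ± 8.397 CPM and moved against Zp2 over the pools (r = -0.98). Fgf8 had 2.96 ± 0.97 and 3.20 ± 0.22 CPM.

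The 3 egg surface genes of sperm binding and fusion were all tested and 0 were called. Izumo1r had 87.8 ± 51.7 CPM in control and 78.0 ± 30.05 CPM with quercetin, and its log2 fold change was -0.17 (SE 0.42). Cd9, the tetraspanin needed for fusion, had 40.5 ± 21.5 and 37.4 ± 12.04 CPM and r = 0.95 with Zp2, as Izumo1r had. Cd81, a related tetraspanin, had 4.13 ± 2.05 and 3.37 ± 0.31 CPM and r = 0.09.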

How the data were processed

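Libraries were prepared with the SMART-Seq HT kit and sequenced on an Illumina NovaSeq. The paper's methods state alignment with Hisat2 to GRCm38.91, while the submitters' processing notes name CASAVA 1.8, TopHat2 2.0.6, mm10 and GRCm38, and how these fit together was not settled. The authors deposited raw read counts per Ensembl gene and pool, with no normalization and no pooling of replicates. The counting program, its use of strand and its treatment of reads that match several genes are not given in the sources used here. Of 53465 genes, 53274 matched a symbol and 24476 had a count.

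Groups came from the sample labels. Counts were filtered with filterByExpr (minimum count 10), scaled by TMM and fitted with edgeR 4.0.16 in R 4.3.3 (quasi-likelihood test, no covariate, Benjamini-Hochberg adjustment over 11842 genes). TMM factors ran from 0.920 to 1.06. CPM use the TMM-scaled totals, log2 CPM a prior count of 2, and log2 ratios 0.5 added counts. Intervals and the limit of 3 counts cover the spread between pools and counting error, respectively. Replicate pools of a group differed by 15.4 to 36.3 times the sampling noise (chi-square per degree of freedom). That is more than repeated sequencing of the same library would give. It does not show whether the pools came from different oocytes or mice.

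The member genes and gene lists were chosen with earlier results of these data known. Named were the 6 members, the 8 genes nearest in pattern to Zp2 and the 2 nearest to each other member, and up to 4 tested genes per list by mean CPM. Alternatives were DESeq2 1.42.0, other scalings and filters, leaving out each pool, the replicate number as a block, another pseudocount for ratios, and Pearson's r for likeness of pattern. The rates of maturation and development, imaging and qPCR were not analysed here. Python 3.11.15 with numpy 2.4.6, pandas 2.3.3 and matplotlib 3.10.9 was used.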

Additional observations from a re-analysis of the deposited data

How the results depend on the processing

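None of the 6 genes was called under any alternative, and outside the fits that left out a pool no log2 fold change or ratio changed sign. Over all tested genes, edgeR's count of 0 became 11 with DESeq2, which tested 24476 genes, 3 without the low-count filter, and 0 to 7 when a pool was left out; none of these was a member. Library size only moved the median log2 fold change of all tested genes from -0.03 to -0.11. With 1 pool left out, the log2 fold change ran from -0.28 to 0.47 for Zp1, -0.71 to 0.85 for Zp2, -0.39 to 0.56 for Zp3, -0.23 to 0.074 for Oosp1, -0.26 to 0.087 for Oosp2 and -0.38 to -0.09 for Oosp3. The difference in log2 ratio ran from -0.58 to 0.25 for Zp2/Zp1, -0.57 to 0.41 for Zp2/Zp3, -0.094 to 0.33 for Zp1/Zp3, -0.20 to 0.19 for Oosp1/Oosp2, 0.03 to 0.29 for Oosp1/Oosp3 and 0.08 to 0.34 for Oosp2/Oosp3, with a sign change in each of the first 4. The within-group SD of Zp2 was 1.18 without quercetin replicate 1 and at most 1.84, above 97.9% of tested genes or more. Without control replicate 1 the SD of Oosp2 was 0.21, above 26.9% of tested genes against 53.1% with all pools. That of Oosp3 lay above 30.9% of tested genes with all pools, 18.6% without control replicate 1 and 15.9% without control replicate 2, and that of Oosp1 above 34.0% with all pools and 22.3% without quercetin replicate 2. By Pearson's r, 3 of the 8 genes nearest to Zp2 were the same, and by library size only all 8.

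The replicate numbers were not taken to pair the pools, and the labels and methods describe no pairing. Deviations from the group means correlated at 0.30, 0.10 and -0.03 for numbers 1, 2 and 3, not all above 0.1. The mean was 0.12 for pools with the same number and -0.06 for pools with different numbers. Both replicate 1 pools were nevertheless the lowest for each zona gene. With the replicate block, log2 fold changes were 0.08 (SE 0.20) for Zp1, -0.21 (SE 0.37) for Zp2 and -0.02 (SE 0.26) for Zp3. They were -0.08 (SE 0.17) for Oosp1, -0.04 (SE 0.16) for Oosp2 and -0.24 (SE 0.19) for Oosp3. The SE of each zona gene was smaller than without the block (0.43, 0.79 and 0.45), and the intervals given above are those without it. With the block, 0 genes were called by edgeR (492 at an unadjusted p under 0.05). With 3 pools per group, a change of Zp2 within the limits of its interval remains possible. Those limits are no limits of detection, since a call also needed an adjusted p under 0.05 over all tested genes. The cause of the spread of the zona genes was not tested.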
